A study of Mus musculus with 14 samples.

Results

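The cells described here are the endothelial cells of white nodules, the cells that line blood and lymphatic vessels. A cell was taken as endothelial when at most 10% of its unique molecular identifiers (UMIs, each standing for 1 captured transcript) came from mitochondrial genes, when at least 3 of the 8 genes Pecam1, Cdh5, Kdr, Cldn5, Egfl7, Emcn, Tie1 and Eng had a UMI, and when Ptprc, the gene for the pan-leukocyte surface protein CD45, had none. This rule found 463 cells among 75548 that passed the mitochondrial limit, of 77442 deposited in all. They came from 6 of 7 nodules, and 321 of them, 69.3%, came from the lung nodule of mouse 29.

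The nodules were excised from mice with floxed Eif3e alleles (Eif3e fl/fl), which encodes one of the proteins of the eIF3 complex that starts translation, and Cγ1Cre, which expresses Cre recombinase from the Ighg1 locus of activated B cells (cKO mice). Endothelial cells are not expected to carry that Cre, some of the animals also carried a Rosa26-YFP reporter, and the background was C57BL/6J. B cell receptor (BCR) libraries accompanied the RNA of 5 nodules. These were a thymus nodule of mouse 33 at 16 mo, a spleen nodule of mouse 31 at 13 mo, a liver nodule of mouse 27 and a lung nodule of mouse 29, both at 12 mo, and a nodule of mouse 34 at 9 mo whose label gives lung and thymus. T cell receptor (TCR) libraries accompanied a liver nodule of mouse 30 at 14 mo and a spleen nodule of mouse 32 at 12 mo. Each mouse gave 1 nodule, so organ, mouse and age cannot be told apart, and no healthy tissue or Cre-negative nodule was analysed here. The study describes the tumor of mouse 27 as a secondary one, grown in a Rag2-/- recipient after transfer of a primary liver nodule, so its vessels may be those of another host. The age and genotype given for mouse 27 then need not be those of its vessels. Nodules were dissociated, erythrocytes were lysed and dead cells were removed before capture.

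Endothelial cells share a core program of junction proteins such as VE-cadherin, receptors for VEGF and angiopoietin, and transcription factors of the ETS and SOX families. On top of this core they differ by organ and by vessel. Sinusoidal endothelium of the liver and spleen scavenges waste through stabilin and mannose receptors, lymphatic endothelium is specified by the transcription factor PROX1 and draws in dendritic cells and T cells with CCL21, and capillaries of lung, heart and fat take up lipid through CD36 and GPIHBP1. In a lymphoid tumor, endothelium is also the entry gate for leukocytes, by selectins, ICAM-1 and VCAM-1, and it answers interferon by making the T cell chemokines CXCL9 and CXCL10, PD-L1 and MHC molecules.

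Endothelial cells made up 0.330% of the filtered cells of mouse 27 (31 of 9396 cells), 2.28% of those of the lung nodule of mouse 29 (321 of 14078), 0.255% for mouse 31 (29 of 11367), 0.421% for mouse 33 (42 of 9984) and 0.379% for mouse 34 (26 of 6869). They made up 0.105% in mouse 32 (14 of 13369) and none of the 10485 cells of mouse 30, which allows a share of up to 0.0286%. Every BCR nodule held a larger share than either TCR nodule, and the lung nodule stood far above all others. The mean was 0.733% ± 0.867 (SD, n = 5) in BCR nodules against 0.0524% in the 2 TCR nodules, a difference of 0.681 percentage points. An exact permutation test over the 21 splits of the nodules gave a two-sided p of 0.0952 when the smaller tail is doubled, which is the smallest p that this count can give. Counted by the absolute difference of means, 7 of the 21 splits were as large and the exact permutation p was 0.333, since every split that puts mouse 29 in the smaller arm gives a larger one. The difference was therefore not larger than the spread between nodules. Without mouse 29 the difference was 0.294 percentage points. The exact (Clopper-Pearson) 95% interval was 2.04 to 2.54% for mouse 29 and 0.0573 to 0.176% for mouse 32. All intervals and zero limits here cover counting error only.

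**Figure D1:**
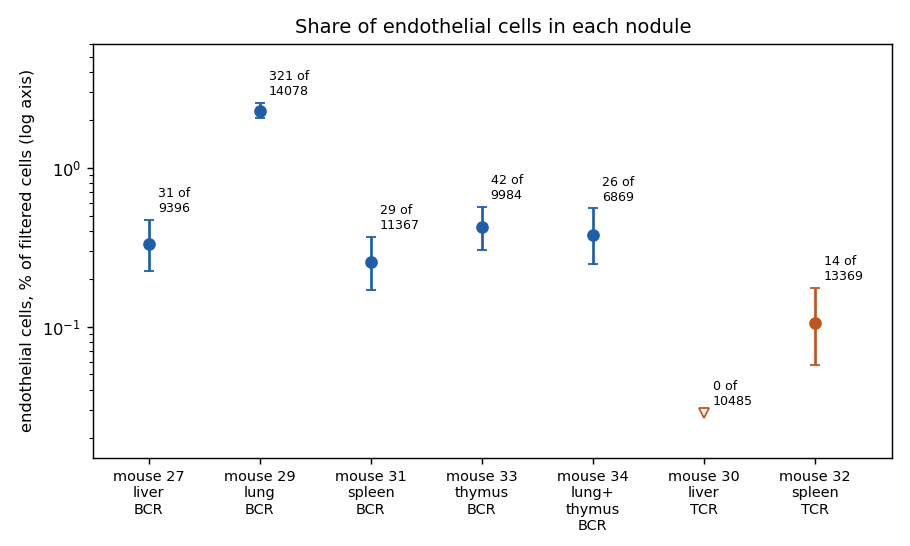
Share of endothelial cells among the filtered cells of each nodule, on a log axis, with exact 95% binomial intervals. Blue points are nodules with BCR libraries, orange ones nodules with TCR libraries, and the open triangle is the limit that 0 of 10485 cells allows. The lung nodule of mouse 29 lies at 2.28% and all other nodules below 0.5%.

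The rule's own genes describe the cells but are no finding. Pecam1, an adhesion molecule of endothelial junctions, had a UMI in 96.1% of the 463 cells, Cdh5 (VE-cadherin) in 75.2%, Egfl7, a secreted vessel protein, in 72.4%, and Kdr (VEGF receptor 2) in 58.5%. Eng, a TGF-beta coreceptor, was seen in 53.6%, the sialomucin Emcn in 48.8%, the receptor Tie1 in 40.6% and the tight junction gene Cldn5 in 153 of the 463 cells. Just inside the limits lay 111 cells with exactly 3 of the 8 genes. Just outside lay 330 Ptprc-negative cells with 2 of them and 188 cells with 3 or more that also held a Ptprc UMI. Emcn was uneven, since a UMI was found in 57.6% of the cells of mouse 29 but in 1 of the 29 cells of mouse 31.

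Most cells fitted the label, with 2 exceptions. In mouse 32, a nodule with a TCR library, 11 of the 14 cells held exactly 3 rule genes, mainly Pecam1, Egfl7 and Eng, which blood progenitors also express. Of these 14 cells, 9 carried Myb, a transcription factor of blood progenitors, 8 carried the erythroid transcription factor Klf1, 10 carried the proliferation gene Mki67, and 4 carried Cdh5. Their median of 27252 UMIs per cell compares with 4244 over all cells of that nodule and with 2028.5 to 6368 for endothelial cells of the other nodules. In mouse 29, 27 cells formed a cluster led by the connective tissue genes Ogn, Inmt and Pdgfra, with Mgp, a matrix protein gene, at 8732 CPM, its UMIs scaled to the usual common total per sum of cells. That cluster still held Cdh5 at 267 CPM and Pecam1 at 841 CPM. Together the clusters led by markers of another cell type held 40 of the 463 cells. Neutrophil genes were left out when these clusters were picked. A lymphatic-like cluster of 137 cells, described below, had 3 of 5 neutrophil genes raised, against 1 of 24 further endothelial markers, and was not counted. Levels by mouse below are given for the 5 nodules with 20 or more cells, unless mouse 32 is named. No endothelial cell carried a V(D)J call, and none shared its barcode with an endothelial cell of another library, although any 2 libraries shared 96 to 286 barcodes over all their cells.

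Levels below are CPM of the UMIs summed over the endothelial cells of a mouse. These sums held 110798 UMIs in mouse 27, 1352510 in the lung nodule of mouse 29, 175115 for mouse 31, 159529 for mouse 33 and 83600 for mouse 34, so that 1 UMI was worth 9.03, 0.739, 5.71, 6.27 and 12.0 CPM. Mouse 29 was therefore the most precise by far. Whole libraries held 19264039 to 123456962 UMIs. Below, liver, lung, spleen and thymus alone stand for the nodules of mice 27, 29, 31 and 33. Since each organ was sampled once, differences between nodules are descriptions of these nodules, and intervals beside a level are exact Poisson 95% intervals.

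Outside the rule, the cells of the 5 nodules with 20 or more of them carried the core endothelial program. All 24 genes of a list of further endothelial markers had UMIs in each of the 5 nodules, and their summed level ran from 6166 to 11746 CPM over the 5 nodules, against 144 to 373 CPM in the other cells of the same nodules. It was 724 CPM in the 14 cells of mouse 32. The 20 genes that stood highest against the other cells of the nodule included Adgrl4, an adhesion receptor of vessels, at 908 ± 332 CPM (SD, n = 5) against at most 9.05 CPM in other cells, and Ptprb, the phosphatase that restrains TIE2, at 792 ± 273 CPM against at most 4.65. Gpihbp1, which carries lipoprotein lipase to the capillary surface, stood at 1166 ± 738 CPM and the calcitonin-family receptor component Ramp2 at 849.7 ± 447 CPM. Its partner Calcrl, Timp3, Cd36, Ly6c1, Tm4sf1, Sparc, Col4a1, Ldb2, Igfbp7, Cyyr1, Gng11, Cd93, Magi1, Plvap, Cavin2 and Adgrf5 completed the 20. Because the cells were chosen by endothelial genes, this contrast is given without a test.

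The receptors for vessel growth factors had UMIs in each of the 5 nodules. Flt1 (VEGF receptor 1) was at 334 CPM in the liver, 309.8 in the lung, 319.8 in the spleen, 815 in the thymus and 682 in mouse 34, highest in the thymus nodule and the lung and thymus nodule. Kdr ranged from 167 to 354 CPM and Tek, the angiopoietin receptor TIE2, from 148 to 295 CPM. Angpt2, the vessel-destabilizing ligand of TIE2, was at 682 CPM in mouse 34 (95% interval 516 to 883), 217 in the liver and 203 in the lung, but at 11.4 in the spleen and 31.3 in the thymus. In mouse 34 those were 57 UMIs in 6 cells, 27 of them in 1 cell. Pgf (placental growth factor) was at 316 CPM in the liver and 138 in the lung, with 0 to 23.9 CPM in the other nodules. In mouse 27, 22 of its 35 UMIs lay in 1 of 5 cells, so the order of liver and lung rests on 1 cell.

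Of 11 genes of tip cells, the cells that lead a sprouting vessel, and of angiogenesis, 6 were highest in mouse 27, 2 each in mouse 31 and mouse 34, and 1 in mouse 33. Their sum was 1616 CPM in the liver, 1196 in mouse 34, 702 in the lung, 605 in the spleen and 451 in the thymus. Esm1, a proteoglycan gene induced by VEGF, stood at 199 CPM in mouse 27 (95% interval 124 to 301, 22 UMIs in 7 of 31 cells) and at 0 to 28.6 CPM elsewhere. Apln, the ligand of the apelin receptor, stood at 99.3 CPM in the liver and at 0 to 6.27 CPM in the other nodules. Dll4, the Notch ligand of tip cells and arteries, had another order: it was highest in mouse 31 at 268 CPM, then 117 in the liver and 31.8 to 43.9 in the remaining nodules. A second Notch ligand, Dll1, was also highest in mouse 31, at 388 CPM against 71.8 to 108, and so was the Notch target Hes1, at 531 CPM against 31.3 to 311.

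The endothelial cells of the liver nodule of mouse 27 carried genes of liver sinusoids. Of a list of 13 sinusoidal genes, 9 were highest there, 2 in mouse 34, and 1 each in the lung and spleen. The list's sum was not highest there, with 4350 CPM against 4522 in mouse 34, 3704 in the lung, 1148 in the spleen and 928 in the thymus. Stab2, a scavenger receptor for hyaluronan, stood at 668 CPM (95% interval 524 to 838) and the nuclease Dnase1l3 at 424 CPM. The sinusoidal lectin Clec4g stood at 63.2 CPM (7 UMIs in 4 cells) and the secreted protein gene Oit3 at 90.3 CPM (10 UMIs in 6 cells). In the other 4 nodules Oit3 had no UMI, Clec4g had 1 UMI in the spleen and none elsewhere, and Dnase1l3 stood at up to 35.9 CPM. A count of 0 allows up to 35.9 CPM in mouse 34, the nodule with the fewest UMIs. The Fc receptor Fcgr2b, which clears immune complexes in sinusoids, was at 316 CPM in these cells and at 73.2 CPM in the other cells of that nodule, which include B cells that express it. Gata4, the transcription factor that sets liver sinusoidal identity, had 4 UMIs in 4 cells in mouse 27 and 0 in the other nodules. Hepatocyte marker UMIs were 0 in the endothelial cells of all nodules. The genes that most set mouse 27 apart were Cfap69, Dnase1l3, Adam23, the oxidized lipoprotein receptor Olr1, the scavenger receptor Msr1, Gal (21 UMIs, all in 1 cell), Cxcl9, Fcgr2b, Ifi207 and Asb4.

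The endothelial cells of the spleen nodule of mouse 31 shared Stab2 with mouse 27, at 708 CPM (95% interval 589 to 844), but lacked most of the liver set. Plvap, which forms the diaphragms of fenestrated endothelium, was at 2313 CPM there against 338 to 559 CPM in the other nodules. Kitl, the stem cell factor that vessels supply to blood progenitors, was at 1376 CPM in the spleen, 464 in the thymus, 318 in the lung, 287 in mouse 34 and 108 in the liver. Tfpi, the inhibitor of the tissue factor pathway of clotting, was at 503 CPM in the spleen and 25.1 to 54.2 CPM elsewhere. The matrix genes Sparc, at 6139 CPM, and Igfbp7, at 9371 CPM, were also highest in this nodule, where the other nodules reached 2744 and 4462 CPM. Lyve1, Emcn and Ccl21a were each at 5.71 CPM, which is 1 UMI. The genes that most set this nodule apart were the unnamed transcripts Gm37350, AU021092 and Gm35533, the stress regulator Nupr1 at 2239 CPM, the potassium channel subunit Abcc9, Rgs4, Star, Rbfox1, Fam181b and Hs6st2.

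Prox1, best known as the lymphatic regulator, was at 319.8 CPM in the spleen nodule, with 56 UMIs in 14 of 29 cells. The lymphatic genes Mmrn1, Reln and Pdpn were at 0 in the same cells, which allows up to 17.1 CPM each, and the lymphatic VEGF receptor gene Flt4 was at 17.1 CPM. The 3 cells of mouse 32 that held Stab2, with 121 UMIs of which 98 were in 1 cell, clustered with the spleen cells of mouse 31. That cluster held 27 cells of mouse 31 and 3 of mouse 32, both spleen nodules, with Prox1 at 402 CPM and Stab2 at 1280 CPM.

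In the lung nodule of mouse 29, 142 of the 321 endothelial cells (44.2%) held 2 or more of the lymphatic genes Prox1, Mmrn1, Reln, Ccl21a and Pdpn. The corresponding counts were 0 of 31 in the liver, 1 of 29 in the spleen, 3 of 42 in the thymus and 3 of 26 in mouse 34. Among the other 13757 filtered cells of mouse 29, 183 (1.33%) also held 2 or more of these genes. Over all endothelial cells of mouse 29, Mmrn1, a secreted protein of lymphatic endothelium, was at 2392 CPM, Reln (reelin) at 667, Ccl21a at 1055, Prox1 at 386 and Pdpn (podoplanin) at 138 CPM. Ccl21a has near-identical copies in the mouse genome, so its level is uncertain. In mouse 34, Mmrn1 at 1423 CPM came from 119 UMIs in 3 cells, 97 of them in 1 cell, so the lymphatic genes of that nodule rest on few cells.

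The 10 genes that most set mouse 29 apart were Ccl21a, Reln and Mmrn1 of the lymphatic cells, Gpx3, Lcn2, Xist, the heat shock gene Hspa1b, the hemoglobin gene Hbb-bs and the neutrophil genes S100a8 and S100a9. Hspa1b was at 2453 CPM in 240 of the 321 cells, against 787 CPM in the other cells of the nodule. Xist, expressed in female cells, was at 734 CPM in 253 of the 321 cells, and at 669 CPM in the other cells of the nodule. The sex of the mice was not taken into account. Of 805 Hbb-bs UMIs, 716 lay in 1 cell. S100a9 was at 197 CPM and S100a8 at 191.5 CPM, against 4572 and 2951 CPM in the other cells of the nodule. The part of RNA from blood cells and of the stress response in the other levels of mouse 29 was not tested.

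Lymphatic cells of mouse 29 and its other endothelial cells also differed in genes that had not been used to part them. Flt4 was at 253 CPM in the 142 lymphatic cells and at 6.38 CPM in the 179 others, the transcription factor Maf at 887 and 17.6 CPM, and the Wnt amplifier Rspo3 at 211 and 1.60 CPM. The venous and lymphatic regulator Nr2f2 was at 463 and 94.2 CPM, the hyaluronan receptor Lyve1 at 4317 and 741 CPM, and the mannose receptor Mrc1 at 431 and 0 CPM. In the opposite direction, Flt1 was at 15.2 CPM in lymphatic cells and 651 CPM in the others, Ly6c1 at 6.89 and 2059 CPM, Cd36 at 37.2 and 4943 CPM, and Kitl at 33.1 and 648 CPM. The adhesion genes also parted: Vcam1 was at 55.1 and 508 CPM and Sele (E-selectin) at 11.02 and 436 CPM, whereas Icam1 was at 552 and 338 CPM and Selp (P-selectin) at 291 and 345 CPM. The median depth was 4064 UMIs in lymphatic cells and 2762 UMIs in the others. These cells share 1 library, so no test was made.

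**Figure D2:**
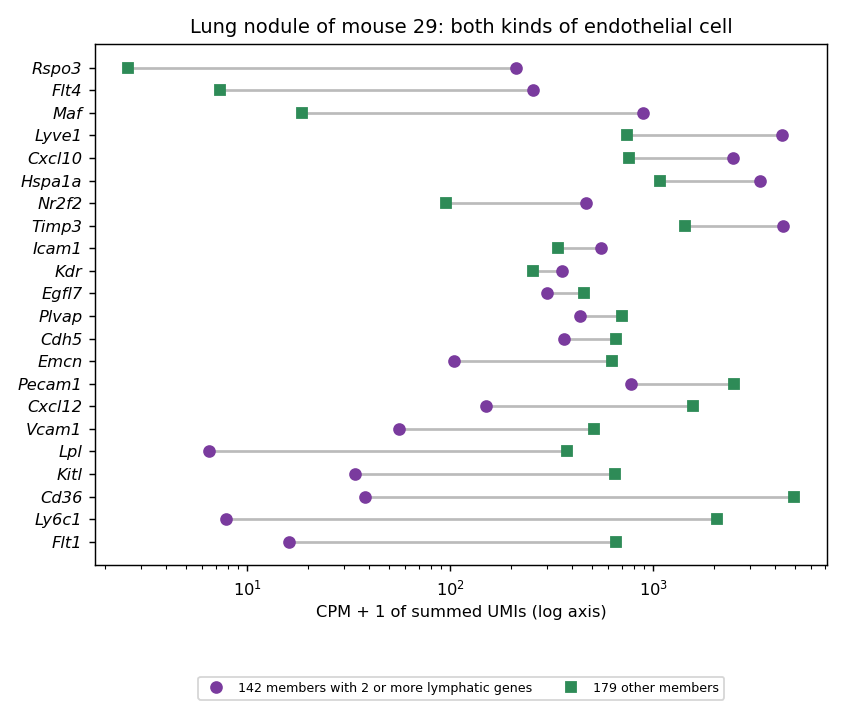
CPM (plus 1, log axis) of named genes in the endothelial cells of mouse 29, summed over the 142 cells with 2 or more lymphatic genes (purple circles) and the 179 others (green squares). Flt1, Ly6c1 and Cd36 lie far to the right in the second kind, Maf, Flt4 and Rspo3 in the first, and Kdr and Egfl7 lie close together.

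The thymus nodule of mouse 33 held endothelial cells with high levels of the fatty acid genes Fabp4, Cd36 and Lpl. Fabp4, a fatty acid binding protein, was at 9729 CPM there (1552 UMIs in 36 of 42 cells), 4152 in the liver, 2500.0 in mouse 34, 1800.4 in the lung and 91.4 in the spleen. In mouse 34, 122 of its 209 Fabp4 UMIs lay in 1 cell. Gpihbp1 had another order, with 2274 CPM in the liver, 1352 in mouse 34, 1209.8 in the thymus, 594 in the spleen and 399 in the lung. The fatty acid receptor Cd36 was at 5823 CPM in the thymus against 1218 to 2376 CPM elsewhere, and the lipoprotein lipase gene Lpl at 1172 CPM in the thymus, 885 in mouse 34 and 176 in the lung. Car4, a carbonic anhydrase of lung capillaries, was at 326 CPM in the thymus, 156 in mouse 34 and 58.4 in the lung, with 0 UMIs in mice 27 and 31. Of the 10 genes that most set mouse 33 apart, Lnx1, Timp4, Gbp10, Cd274 and Cxcl9 were spread over 10 to 35 cells. Dmkn, Upk3b and Aspm each came from 1 cell, and 66 of 70 Prc1 UMIs and 77 of 92 C3 UMIs lay in 1 cell as well. Upk3b is a mesothelial gene, and Prc1 and Aspm are genes of cell division.

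The lung and thymus nodule of mouse 34 was led by Hpgd, the enzyme that inactivates prostaglandins, at 885 CPM (74 UMIs in 14 of 26 cells) against at most 72.2 CPM in the other nodules. Ace, the angiotensin-converting enzyme, was at 455 CPM against 25.1 to 60.6 CPM, Sema3c, a secreted guidance protein, at 371 CPM, and Ackr1, the decoy chemokine receptor of venules, at 108 CPM (9 UMIs in 2 cells). Other genes of its set came from few cells: Dcn from 3, Fn1 from 2, Hopx from 3 and Scn3a from 2. Dcn is a gene of fibroblasts, and the summed fibroblast markers stood at 1603 CPM in these 26 cells, all of it Dcn, against 9.03 to 251 CPM in the other 4 nodules and 36.3 CPM in the other cells of this nodule. Their part in the other levels of mouse 34 was not tested. Def8, Krt80, Gm46620 and Adgrl3 completed the set.

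**Figure D3:**
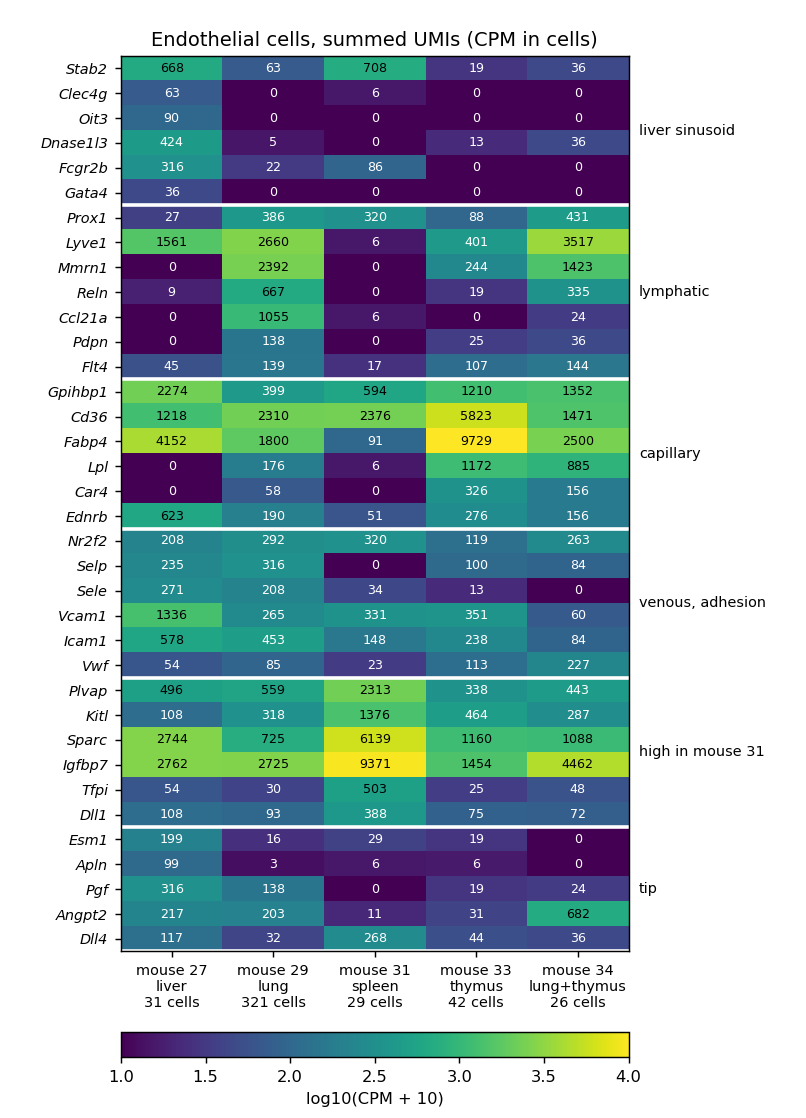
Level of vessel subtype genes in the endothelial cells of the 5 nodules with 20 or more of them. Cells give CPM of summed UMIs, and colour gives log10 of CPM plus 10. Liver sinusoid genes are brightest in mouse 27, except Stab2, which is slightly higher in mouse 31. Lymphatic genes are bright in mouse 29, and Prox1, Lyve1, Mmrn1 and Reln also in mouse 34, where they rest on few cells. Fabp4, Cd36 and Lpl are bright in mouse 33, and Plvap, Kitl, Sparc, Igfbp7 and Tfpi in mouse 31.

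Clustering of the 463 cells repeated this division by nodule. Cluster 1 (138 cells, led by Emcn, Abcb1a, Cxcl12 and Sparcl1) and cluster 2 (137 cells, led by Mmrn1, Reln and Ccl21a) came mostly from mouse 29, with 125 and 131 cells. Cluster 2 was lymphatic-like by its markers and held 3 cells each of mice 33 and 34. Cluster 3 (47 cells, led by Hpgd, Vwf, Pde3a and Sele) joined 32 cells of mouse 29 with 14 of the 26 cells of mouse 34 and 1 of mouse 32. Its Vwf, the clotting protein of large vessels and venules, was at 681 CPM, its Selp at 1006 CPM and its Lyve1 at 2764 CPM, with Prox1 at 6.37 CPM. Cluster 4 held 28 of the 31 cells of mouse 27, cluster 5 held 32 of the 42 of mouse 33, and cluster 6 held 27 of the 29 of mouse 31. A cluster mostly of 1 library may reflect that library and is not taken as a cell type. Clusters 7 (27 cells) and 8 (13 cells) are those led by connective tissue and by erythroid and division genes.

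**Figure D4:**
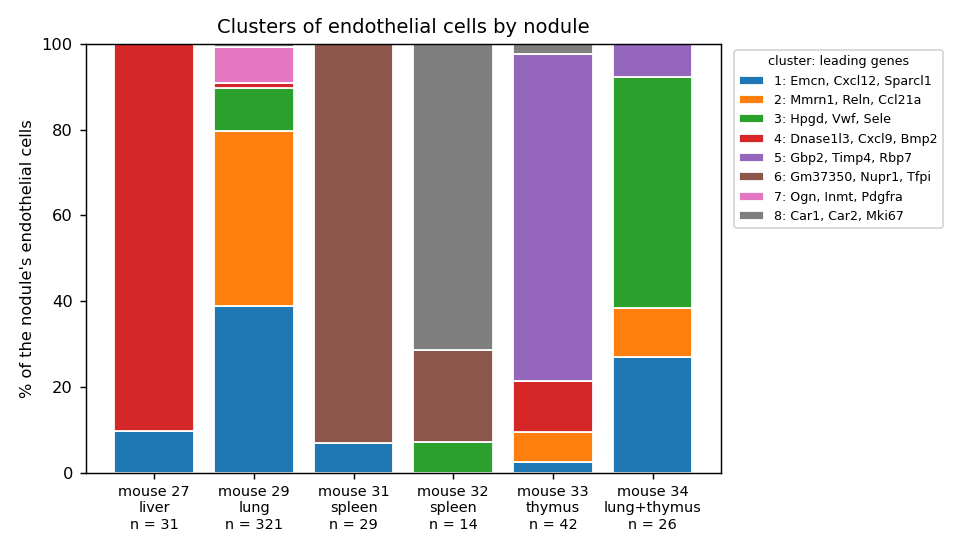
Share of each nodule's endothelial cells in 8 clusters, named by 3 of their leading genes. 1 cluster each holds most cells of mice 27, 31 and 33, mouse 29 is split mainly between clusters 1 and 2, and most cells of mouse 32 lie in cluster 8, led by Car1, Car2 and Mki67.

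Of 12 leukocyte adhesion genes, 3 were highest in the liver nodule (Vcam1, Icam1 and Sele), 6 in mouse 34, and 1 each in the lung, spleen and thymus. Their sum was 3926 CPM in the liver, 2584 in mouse 34, 2228 in the lung, 2181 in the thymus and 1536 in the spleen. Vcam1, which binds integrins of lymphocytes, was at 1336 CPM in the liver (95% interval 1129 to 1569), 351 in the thymus, 331 in the spleen, 265 in the lung and 59.8 in mouse 34. Icam1 was at 578 CPM in the liver, 453 in the lung, 238 in the thymus, 148 in the spleen and 83.7 in mouse 34. The order of both genes began with mouse 27 and ended with mouse 34, whereas Icam2 was highest in mouse 34 at 598 CPM against 78.4 to 219 CPM elsewhere. Sele, an early adhesion receptor for leukocytes, was at 271 CPM in the liver and 208 in the lung, at 34.3 and 12.5 CPM in mice 31 and 33, and at 0 in mouse 34. Selp was at 316 CPM in the lung, 235 in the liver, 100.3 in the thymus, 83.7 in mouse 34 and 0 in mouse 31. Glycam1, Chst4 and Fut7, genes of the high endothelial venules through which lymphocytes enter lymph nodes, had 0 UMIs in the endothelial cells of all nodules. In mouse 29, a count of 0 allows 2.22 CPM. Madcam1 reached 35.9 CPM in mouse 34, which is 3 UMIs. Of the 9 genes listed for these venules, 6 had UMIs. Their sum was 1304 CPM in the lung, where Ccl21a, also a lymphatic gene, was at 1055 CPM, and 75.2 to 443 CPM in the other nodules. Ch25h ranged from 12.5 CPM in the thymus to 132 CPM in mouse 34.

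The chemokines for activated T cells differed between nodules. Cxcl9 was at 1327 CPM in the liver (147 UMIs in 19 of 31 cells) and 1417 in the thymus (226 UMIs in 28 of 42 cells), 132 in mouse 34, where all 11 UMIs lay in 1 cell, 5.18 in the lung and 0 in mouse 31. In the other cells of the same nodules it was at 12.0 CPM in the liver and 125 CPM in the thymus. Cxcl10 had another order, with 4395 CPM in the liver, 1676 in the lung, 525 in the spleen, 445 in the thymus and 59.8 in mouse 34. Ccl2, which recruits monocytes, was also highest in mouse 27 at 1282 CPM and lowest in mouse 34 at 12.0 CPM. Cxcl12, which retains B cells and progenitors, had a different order, with 1379 CPM in the thymus, 1017 in mouse 34, 806 in the lung, 144 in the liver and 103 in the spleen.

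The summed interferon response was highest in the thymus nodule, then in the liver nodule. The 16-gene sum was 15445 CPM in the thymus, 9098 in the liver, 6974 in mouse 34, 5126 in the lung and 2838 in the spleen, above that of the other cells of the same nodule in all 5, where it was 1183 to 2460 CPM. Gbp2, a guanylate-binding protein induced by interferon gamma, was at 2307 CPM in the thymus (95% interval 2077 to 2555), 352 in the liver, 215 in mouse 34, 90.2 in the lung and 34.3 in the spleen. The GTPase Iigp1 was at 1448 CPM in the thymus and 1200.4 in the liver, against 132 to 143 CPM in the other 3 nodules.

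Of the 16 genes, 9 were highest in the thymus, 3 in the lung (Ifit1, Ifit2 and Isg15), 2 in the liver (Irf1 and Rsad2) and 2 in mouse 34 (Ly6a and Ly6e). Ifit1, which binds foreign RNA, was at 603 CPM in the lung, 542 in the liver, 508 in the thymus, 71.8 in mouse 34 and 17.1 in the spleen. In mouse 33, 61 of its 81 UMIs lay in 1 cell. Isg15, a ubiquitin-like protein, was likewise highest in mouse 29 at 960.4 CPM and mouse 27 at 839, with 276 in the thymus, 156 in mouse 34 and 97.1 in the spleen. The antiviral enzyme Rsad2 was at 1309 CPM in the liver, 664 in the thymus, 558 in the lung, 83.7 in mouse 34 and 5.71 in the spleen.

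The promoters of Gbp2, Ifit1 and Rsad2, which were highest in the thymus, lung and liver in turn, are shown because 1 known interferon motif can be read in them. The sequences are the 250 bases before the start of each gene from RefSeq (GRCm38.p6), 5′ to 3′ on the strand of the gene, with matches in capitals to GAAA followed by any 2 bases and a second GAAA, or to the reverse complement with TTTC in place of GAAA. This motif is the core of the interferon-stimulated response element.
Gbp2 (chr3:142620413-142620662, plus strand): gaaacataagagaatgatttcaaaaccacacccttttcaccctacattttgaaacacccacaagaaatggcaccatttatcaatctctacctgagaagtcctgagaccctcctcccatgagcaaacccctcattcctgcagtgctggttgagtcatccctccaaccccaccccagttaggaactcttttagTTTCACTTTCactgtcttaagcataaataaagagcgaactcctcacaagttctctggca
Ifit1 (chr19:34640639-34640888, plus strand): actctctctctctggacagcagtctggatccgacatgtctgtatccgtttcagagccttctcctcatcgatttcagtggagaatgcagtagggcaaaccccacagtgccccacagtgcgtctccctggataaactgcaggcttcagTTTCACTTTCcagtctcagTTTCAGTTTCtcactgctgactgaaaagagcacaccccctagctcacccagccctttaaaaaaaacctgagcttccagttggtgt
Rsad2 (chr12:26456453-26456702, minus strand): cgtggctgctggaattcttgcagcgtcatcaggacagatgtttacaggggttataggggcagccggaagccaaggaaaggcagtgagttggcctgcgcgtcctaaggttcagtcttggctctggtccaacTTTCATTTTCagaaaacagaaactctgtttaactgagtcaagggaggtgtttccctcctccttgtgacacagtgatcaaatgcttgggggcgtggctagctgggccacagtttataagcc
Of the 16 genes of the interferon list, 11 had a promoter in the reference table, and 8 of these 11 genes (72.7%) held the motif on either strand, against 936 of 27025 genes (3.46%) in the whole table. Ifit1 held 2 matches, Gbp2 and Rsad2 1 each. Irf1, Irf7 and Ifit2 held none in this window. A match describes the letters only, and the list is one of known interferon targets.

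Cd274, the gene for PD-L1, which restrains T cells, was at 1410.4 CPM in the thymus (225 UMIs in 35 of 42 cells), 262 in the liver, 59.8 in mouse 34, 48.1 in the lung and 5.71 in the spleen. In mouse 33 the other cells of the nodule held 97.3 CPM, and in mouse 29 they held 186 CPM, above its endothelial cells. Pdcd1lg2, the gene for PD-L2, was at 0 in 4 of the 5 nodules and at 0.739 CPM, 1 UMI, in mouse 29. The thymus nodule was thus the highest for Cd274 and the liver nodule next.

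MHC class I and class II genes were highest in the thymus nodule and in mouse 34. B2m, the light chain of MHC class I, was at 7710.2 CPM in the thymus, 7356 in mouse 34, 5235 in the liver, 4327 in the lung and 4106 in the spleen, and in each nodule above the other cells, which held 1842 to 2882 CPM. H2-K1, a class I heavy chain, ranged from 583 CPM in the lung to 2125 CPM in the thymus. Cd74, the invariant chain of MHC class II, was at 4414 CPM in mouse 34, 3272 in the thymus, 1453 in the liver, 377 in the lung and 188 in the spleen, below the other cells in every nodule. The other cells include B cells, and free RNA of such cells can enter any droplet. In mouse 33 the level of Cd74 was 70.8% of that of the other cells and H2-Aa, a class II chain, 45.5%, whereas the B cell gene Cd79a was at 25.1 CPM against 167 CPM. In mouse 34 the corresponding shares of Cd74, H2-Aa and Cd79a were 38.2%, 30.7% and 4.84%, with Igkc at 17.04% and Cd79b at 9.98%. Mouse 29 had Cd74 at 40.8% and H2-Aa at 45.6%, with Cd79a at 3.12%, Igkc at 5.38% and Ighe at 8.11%. In mouse 27 Cd74 was at 22.7% and H2-Aa at 6.33%, below Ighe at 14.5%. In mouse 31 the shares of Cd74, H2-Aa and Cd79a were 2.42%, 2.54% and 0.879%. The immunoglobulin gene Igkc stood at 5.79% in mouse 31, above both class II genes there. The part of free RNA in these levels was not tested.

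**Figure D5:**
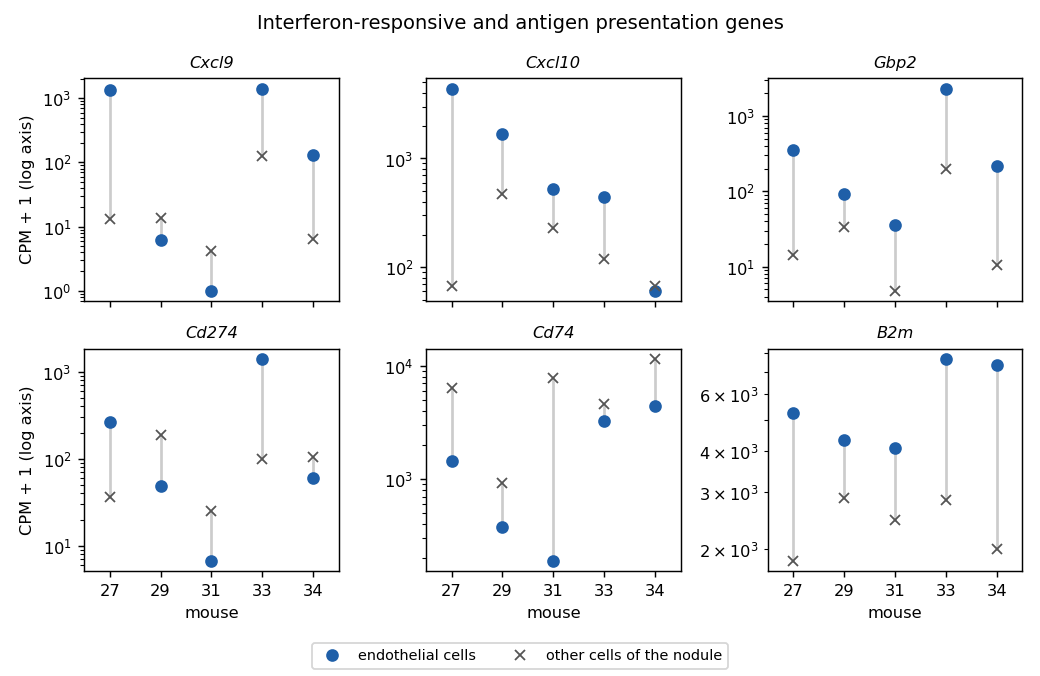
Level (CPM plus 1, log axis) of 6 genes in endothelial cells (blue circles) and in all other filtered cells of the same nodule (grey crosses), for the 5 mice with 20 or more endothelial cells. Cxcl9 and Cd274 are far above the other cells in mice 27 and 33, B2m is above them in all 5 nodules, and Cd74 is below them in all 5.

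Only 1 test across genes was made, with more than 1 mouse on each side. It set the nodules whose label names lung (mice 29 and 34) against those of mice 27, 31 and 33, all with BCR libraries. The label of mouse 34 names thymus as well, and nodules naming thymus (mice 33 and 34) were not tested against the rest. The lung comparison was chosen after the data had been seen. The reason was that BCR against TCR nodules and liver against spleen nodules had fewer than 2 mice with 20 cells on a side. No gene passed an adjusted p of 0.05 in edgeR's quasi-likelihood test with Benjamini-Hochberg adjustment: 0 of 3545 genes (0%) did, and 130 (3.67%) had an unadjusted p under 0.05. DESeq2 called 4 genes, all higher in lung nodules. The 5 genes with the smallest p that were higher in lung nodules were Gpx3, Lcn2, Reln, Tc2n and Dlg1, and none passed. Gpx3, an extracellular peroxidase, was at 0, 11.4 and 12.5 CPM in mice 27, 31 and 33 and at 611 and 239 CPM in mice 29 and 34, a log2 difference of 5.59 ± 0.80 (SE) with adjusted p = 0.308. Lcn2, which neutrophils also make in quantity, was at 434.7 and 144 CPM in the lung nodules and no more than 6.27 CPM in the others, with adjusted p = 0.308. In mouse 29 the other cells of the nodule held more of both, 676 CPM of Gpx3 and 588 CPM of Lcn2, and what free RNA adds to these levels was not tested.

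Reln, a secreted glycoprotein of lymphatic endothelium, was at 667 and 335 CPM in mice 29 and 34 and at 9.03, 0 and 18.8 CPM in mice 27, 31 and 33, a log2 difference of 5.76 ± 0.85 (SE) with adjusted p = 0.308, against 42.9 CPM in the other cells of mouse 29. In mouse 34 it came from 28 UMIs in 3 cells, 16 of them in 1 cell. All 6 tested genes of the lymphatic list were higher in the lung nodules, 3 of them with an unadjusted p under 0.05, and their median log2 difference was 3.29. Over all genes tested, 1633 of 3545 were higher in lung nodules, 130 (3.67%) had an unadjusted p under 0.05, and the median was -0.05. Of the 15 tested interferon genes, 5 were higher in lung nodules, 2 had an unadjusted p under 0.05 and the median was -0.99. The genes lower in lung nodules with the smallest p were the chemokine Cxcl16, the cytokine signaling inhibitor Socs1, Emp3, the complement regulator Cd55 and the growth factor Bmp2, and none passed. Cxcl16 was at 117, 108 and 94.0 CPM in mice 27, 31 and 33 and at 11.1 and 35.9 CPM in mice 29 and 34, without overlap.

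Eif3e, the gene deleted in activated B cells of these mice, was expressed in the endothelial cells. It made up 6.52% of the UMIs of the 14 eIF3 subunit genes in mouse 27 (15 of 230 UMIs, exact 95% interval 3.70 to 10.5%), 5.75% in the lung (141 of 2453, 4.86 to 6.74%), 8.51% in the spleen (32 of 376, 5.89 to 11.8%) and 7.53% in the thymus (21 of 279, 4.72 to 11.3%). It made up 3.70% in mouse 34 (7 of 189, 1.502 to 7.48%) and 5.25% in mouse 32 (74 of 1409). In the other cells of the same nodules it was 4.81 to 6.53%. The intervals of the endothelial cells held the share of the other cells in all nodules but that of mouse 31. There the share was above the 4.81% of the other cells. For mouse 32, 38 of the 1409 eIF3 UMIs lay in cells with at least 4 rule genes. Its share thus came mostly from cells with exactly 3 of them, and many cells of that nodule's set carried blood progenitor genes. UMIs of the deleted and the intact allele were not told apart, so Eif3e shares do not measure deletion.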

How the data were processed

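The authors deposited droplet single-cell RNA matrices of whole-number UMI counts per gene and cell for 7 nodules (32285 genes), not normalized, with V(D)J contig tables. The submitters' processing notes name GRCm38 and mm10, and the aligner and cell caller are not given in the sources used here. The labels name a 5′ kit, and the study's methods name a 3′ kit for RNA libraries and a 5′ kit for V(D)J libraries, so the counted end is not certain. Cells were selected by the rule stated above. No doublet caller was run. Ptprc was 0 by the rule itself, and 0 selected cells carried a V(D)J call, which covers only the receptor profiled in that nodule. Neither speaks to doublets with cells that are not leukocytes. The share and the lung comparison were repeated without cells holding more than a single UMI of another cell class. These classes were B cell, T cell, macrophage, megakaryocyte, erythroid, fibroblast and hepatocyte genes. Levels by nodule and the clusters were not repeated in this way.

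Counts were summed per mouse (at least 20 cells), because cells are not replicates, and scaled to CPM. A count of 0 was read as allowing up to 3 counts. Each mouse was taken as 1 replicate, although libraries of 1 group also differ by organ and age, and that of mouse 27 perhaps by host. The share was compared by exact permutation, with the smaller tail doubled and, added later, by the absolute difference. Cells were clustered with scanpy 1.11.5 (10000 UMIs per cell, 2000 variable genes, 20 components, 15 neighbors, Leiden resolution 0.5). Genes were tested with edgeR 4.0.16 (glmQLFit) in R 4.3.3, with DESeq2 1.42.0 as an alternative, after a test of the code on simulated data. The planned comparisons of BCR with TCR nodules and of liver with spleen nodules could not be fitted, and the lung comparison was chosen after seeing the data. Python 3.11.15, scipy 1.17.1, numpy 2.4.6 and pandas 2.3.3 were used.

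The genes named are the 8 of the rule, members of marker and pathway lists, the 20 genes highest against the other cells of each nodule (10 CPM added, at least 100 CPM in each of the 5 nodules), the 10 genes that most set each mouse apart, and the 5 with the smallest p in each direction of the lung comparison. Cells and lists were chosen with earlier results of these data known. Alternatives changed the number of rule genes, the mitochondrial limit, the removal of cells or genes, normalization, low-count filter and the mice included. Some single-gene results are not reported here.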

Additional observations from a re-analysis of the deposited data

Results flagged for a closer look

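Of 66 values tested, 22 had 1 mouse far from the other 4, which means that the gap to its nearest neighbour passed 0.71 of the whole range. About 1 of 20 groups of normally spread values passes this limit, and levels over 5 nodules need not be spread so. The values tested were shares and genes named in the text. No such count was made over all genes, so 22 of 66 is not read as a rate. All 22 lay on the high side, and many of the genes were named because 1 nodule was high. The gap is given as a share of the range, with a count of 0 read as 0 although it allows up to 35.9 CPM in mouse 34. Gata4 at 36.1 CPM is 4 UMIs and Madcam1 at 35.9 CPM is 3 UMIs, so their gaps lie within what a count of 0 allows, or at its edge, and are given as values only.

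The share of endothelial cells was 2.28% in mouse 29 and 0.255 to 0.421% in the other 4 BCR nodules, a gap of 0.918 of the range.

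In the liver nodule of mouse 27, Clec4g was at 63.2 CPM, against 0 to 5.71 in the other 4 nodules (gap 0.910). Oit3 was at 90.3 CPM there, against 0 in all of them (gap 1). Dnase1l3 was at 424 CPM there, against 0 to 35.9 (gap 0.915). Fcgr2b was at 316 CPM there, against 0 to 85.7 (gap 0.729). Vcam1 was at 1336 CPM there, against 59.8 to 351 (gap 0.772). Esm1 was at 199 CPM there, against 0 to 28.6 (gap 0.856). Apln was at 99.3 CPM there, against 0 to 6.27 (gap 0.937). Gata4 was at 36.1 CPM there, against 0 in all of them (gap 1).

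In the lung nodule of mouse 29, Ccl21a was at 1055 CPM, against 0 to 23.9 in the other 4 nodules (gap 0.977). Pdpn was at 138 CPM there, against 0 to 35.9 (gap 0.739).

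In the spleen nodule of mouse 31, Kitl was at 1376 CPM, against 108 to 464 in the other 4 nodules (gap 0.720). Plvap was at 2313 CPM there, against 338 to 559 (gap 0.888). Tfpi was at 503 CPM there, against 25.1 to 54.2 (gap 0.939). Dll1 was at 388 CPM there, against 71.8 to 108 (gap 0.885).

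In the thymus nodule of mouse 33, Cd36 was at 5823 CPM, against 1218 to 2376 in the other 4 nodules (gap 0.749). Gbp2 was at 2307 CPM there, against 34.3 to 352 (gap 0.860). Cd274 was at 1410.4 CPM there, against 5.71 to 262 (gap 0.818).

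In the lung and thymus nodule of mouse 34, Ackr1 was at 108 CPM, against 0 to 12.5 in the other 4 nodules (gap 0.884). Ace was at 455 CPM there, against 25.1 to 60.6 (gap 0.917). Madcam1 was at 35.9 CPM there, against 0 to 0.739 (gap 0.979). Icam2 was at 598 CPM there, against 78.4 to 219 (gap 0.729).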

How the results depend on the processing

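The higher share of endothelial cells in BCR nodules kept its direction under all 15 alternatives. The difference was 0.294 to 0.800 percentage points when 1 mouse was left out, the lowest without mouse 29. No exact permutation p with the smaller tail doubled could pass 0.05. The smallest that this test can give is 0.0952 with all 7 nodules, and it is higher with fewer. In the lung comparison no gene passed when 1 mouse was left out (0 to 0 genes). Leaving out mouse 29 or mouse 34 leaves 1 lung nodule, which is then assumed to vary like the others. DESeq2 called 4 genes (Lcn2, Scn3a, Reln and Gpx3), and the fit without a filter on low counts called 156 genes, 87 higher and 69 lower in lung nodules, against 0. The cause was not tested. Of 140 possible values of the 10 named genes, 14 could not be had because the gene fell under the low-count filter. Gpx3, Lcn2, Reln and Tc2n dropped out without the lymphatic cells, and these and Emp3 without cells holding more than a single UMI of another cell class. Of the 126 values given, 113 kept their direction and side of the threshold, 12 passed it, all with DESeq2 or without the filter, and 1 reversed: Dlg1 was at a log2 difference of -0.27 without the lymphatic cells, against 2.31, a change that comes with the removal of those cells. Eif3e in mouse 32 made up 7.89% of eIF3 UMIs with at least 4 rule genes, against 5.25%, with 3 cells left. No paired analysis was possible because the BCR and TCR nodules share no mouse number. The fits of BCR with TCR and of liver with spleen nodules were not run in any alternative, and a minimum of 50 cells left mouse 29 alone. Depth limits the small nodules, where 1 UMI was worth up to 12.0 CPM.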

Other observations

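Genes of clotting control and of vessel tone were present in the endothelial cells of all 5 nodules. The 8 genes of vascular tone and flow summed to 2301.5 to 2758 CPM. Klf2, a transcription factor induced by blood flow, was at 371 to 1662 CPM and Klf4 at 311 to 748 CPM. The 9 coagulation genes summed to 1191 to 1841 CPM, with the thrombin receptor gene Thbd (thrombomodulin) at 90.3 to 239 CPM. Basement membrane genes summed to 17663 CPM in the spleen and 5178 to 8995 CPM in the other nodules.

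Immediate early and dissociation-response genes summed to 34908 CPM in the spleen, 32348 in the lung, 23954 in the liver, 13791 in the thymus and 6148 in mouse 34. Their part in other levels was not tested. Hypoxia and glycolysis genes summed to 2548 CPM in mouse 34 and to 474 to 1072 CPM in the other nodules.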
